A study of Homo sapiens with 6 samples.

Results

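The proteasome subunits were compared between human cells labelled THP-1 that received recombinant human RBP4 protein and the same cells without it. THP-1 was derived from a patient with monocytic leukaemia and often serves as a macrophage model, and RBP4 is the plasma carrier of retinol. The members were all protein-coding genes of the deposited table whose symbol is PSMA, PSMB, PSMC or PSMD followed by a number: 37 of 28847 genes, of which 17 encode the core (PSMA and PSMB) and 20 the cap (PSMC and PSMD). There were 3 libraries labelled THP-1 alone, the control, and 3 labelled THP-1 with RBP4; the labels name no other agent, give no dose or time, and do not say that replicates came from separate cultures, so p-values measure the spread between these libraries. The series presents the cells as unpolarized (M0) macrophages.

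The proteasome is the barrel-shaped protease that degrades proteins tagged with ubiquitin. Its core particle is a stack of rings: alpha subunits (PSMA) form the outer rings and the gate, and beta subunits (PSMB) form the inner rings, of which PSMB5, PSMB6 and PSMB7 carry the constitutive proteolytic sites. Immune cells and cells exposed to interferon can exchange these for PSMB8, PSMB9 and PSMB10, which make the immunoproteasome and favour peptides for MHC class I presentation. A regulatory cap sits on the core. Its base holds the ATPases (PSMC) that unfold substrates, and its lid holds subunits (PSMD) among which PSMD14 removes ubiquitin. Cells can raise the genes of the whole particle together through the transcription factor NFE2L1 when proteasome activity is short.

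Between 15202000 and 16420517 reads were recovered per library, and 15676 genes passed the filter of at least 10 normalized reads (the reads of a gene over the size factor of its library) in at least 3 libraries. Marker genes went against the label of a monocytic line: 4 of 16 monocyte and macrophage markers but 15 of 19 erythroid markers reached 10 CPM (counts scaled to a common library total) in all 6 libraries. The monocyte markers CD14 and CD68 had means of 0.0858 and 0.0213 CPM in the control and 0 and 0.0821 CPM in the RBP4 libraries, whereas the erythroid factor GATA1 stood at 195 and 209 CPM. Neither list was uniform. In the control, FCGR2A, CD33 and SPI1 of the monocyte list had 104.7, 52.7 and 39.2 CPM. AHSP, SLC4A1, EPB42 and HBE1 of the erythroid list had 2.62, 1.46, 0.617 and 0.52 CPM. The summed level of the monocyte list ranged from 227 to 233 CPM in the control and 236 to 247 CPM in the RBP4 libraries, that of the erythroid list from 2404 to 2417 and 2076 to 2125 CPM, that of 8 pan-leukocyte genes from 1012 to 1029 and 920 to 929 CPM, and that of lymphocyte genes from 9.06 to 12.7 and 9.19 to 10.05 CPM. TFRC, the highest gene of the erythroid list, went from a mean of 901.5 CPM in the control to 483.0 in the RBP4 libraries. Of that list 6 genes rose, among them RHAG (469.7 to 552.3 CPM), and 6 fell (limma, adjusted p below 0.05). LCP1 of the pan-leukocyte list went from 442.7 to 339.0 CPM, and 2 genes of that list rose and 2 fell. Among all genes tested 24.5% rose and 26.1% fell. The sums thus do not stand for whole lists. The part of these differences in the results below was not tested. In bulk RNA, fewer cells of a type and less RNA per cell cannot be told apart.

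Most subunit transcripts were lower in the RBP4 libraries, by small amounts. Of 36 members tested, 28 fell, 1 rose and 7 did not pass (limma, adjusted p below 0.05), with a median log2 fold change of -0.24. Among all genes tested 50.6% were called: 26.1% fell and 24.5% rose, with a median of -0.0021. Abundant genes fell more often than others: of 3754 protein-coding genes averaging 1000 or more normalized reads, 56.6% fell, with a median of -0.12. In that abundance class 28 of the 29 members fell, 11 of 11 in the core and 17 of 18 in the cap. For 31 of the 36 members no RBP4 value lay among the control values, against 56.2% of all genes tested. In the abundance class of 1000 or more this held for 96.6% of members, against 74.8% of protein-coding genes. When libraries were scaled to equal totals, which moved the median of all genes by 0.068, 24 members fell and 2 rose, while calls over all genes went from 3838 raised and 4096 lowered to 4819 raised and 2990 lowered.

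**Figure D1:**
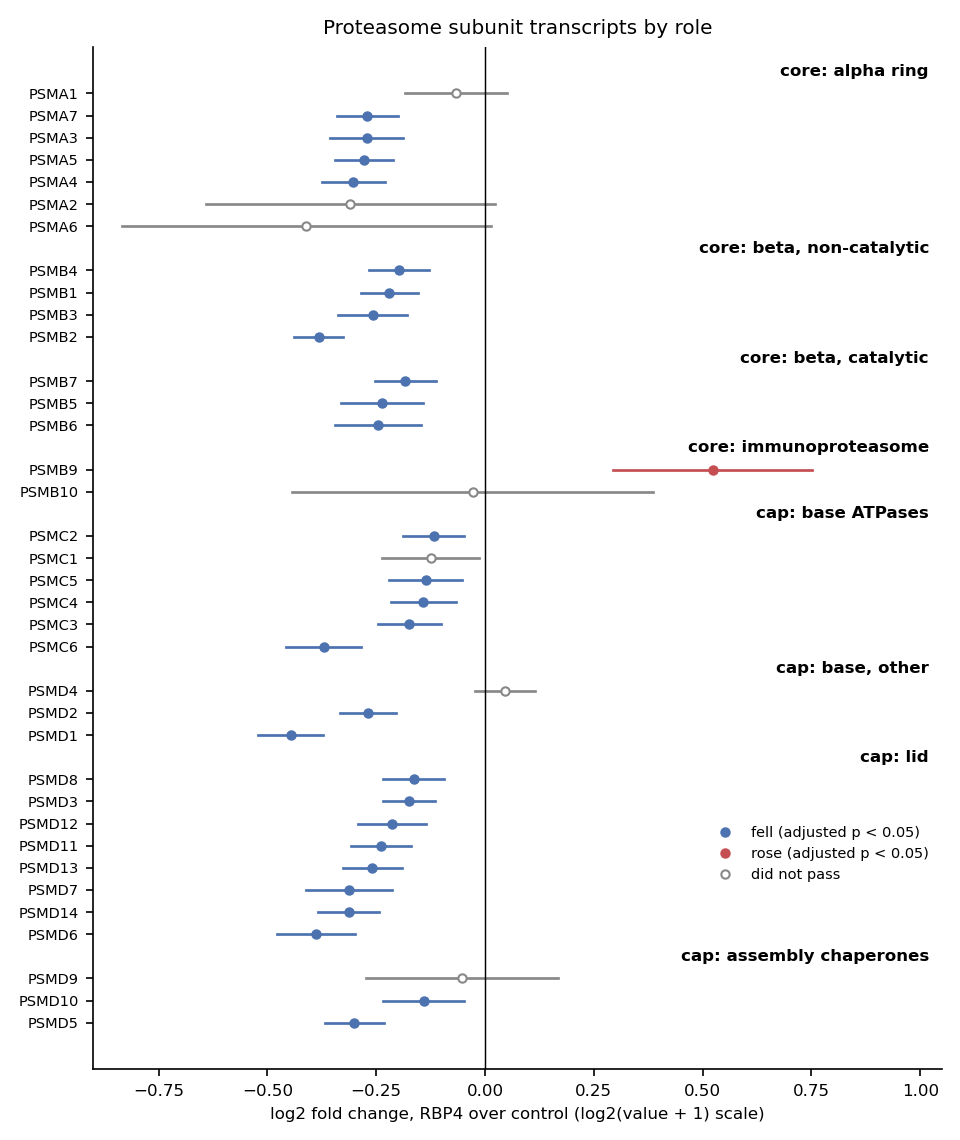
Log2 fold change (x axis, RBP4 over control, log2(value + 1) scale) of the 36 tested subunit genes, with 95% confidence intervals from limma, ordered by role (y axis). Filled points passed at an adjusted p under 0.05: 28 lie below 0 and PSMB9 alone lies above it, while the 7 open points did not pass.

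Summed over its 17 genes, the core gave 30563, 30990.4 and 30761 normalized reads in control libraries 1, 2 and 3 and 25319, 25662 and 26021 in RBP4 libraries 1, 2 and 3. The cap, over 20 genes, gave 45007, 44885 and 45169 against 38738, 38186 and 39148. Every RBP4 library was thus below every control library in both parts of the particle, with sums 16.6% (core) and 14.1% (cap) lower on average. As a share of all reads, which does not use the size factors, the 37 genes together made up 0.466% ± 0.000522 (mean ± SD, n = 3) of the control and 0.415% ± 0.00405 of the RBP4 libraries, a difference of -10.97%. The ratio of the cap sum to the core sum was 1.46 ± 0.0130 in the control and 1.51 ± 0.0211 in the RBP4 libraries. Other measures of the same balance did not all follow this. The ratio of the cap median to the core median per kilobase was 0.853 ± 0.0596 and 0.849 ± 0.0118. Among members whose principal annotated transcript shares no exon with another gene, without immunoproteasome and assembly chaperones, it was 0.643 ± 0.0185 and 0.773 ± 0.0234. The ratio of sums and this last ratio were thus higher in the RBP4 libraries, without overlap, and the ratio of medians over all members hardly moved. With members that share exons kept in, and the same genes left out, the medians per kilobase went the other way. The cap median went from 504.0 to 369.9 (0.734 of the control) and the core median from 736.3 to 622.3 (0.845). The direction for cap against core thus depended on the members and the measure. No test is given for these sums, because the members were chosen with earlier results of these data known. The median log2 fold change was -0.25 over 16 core genes and -0.19 over 20 cap genes, with 11 and 17 genes that fell.

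**Figure D2:**
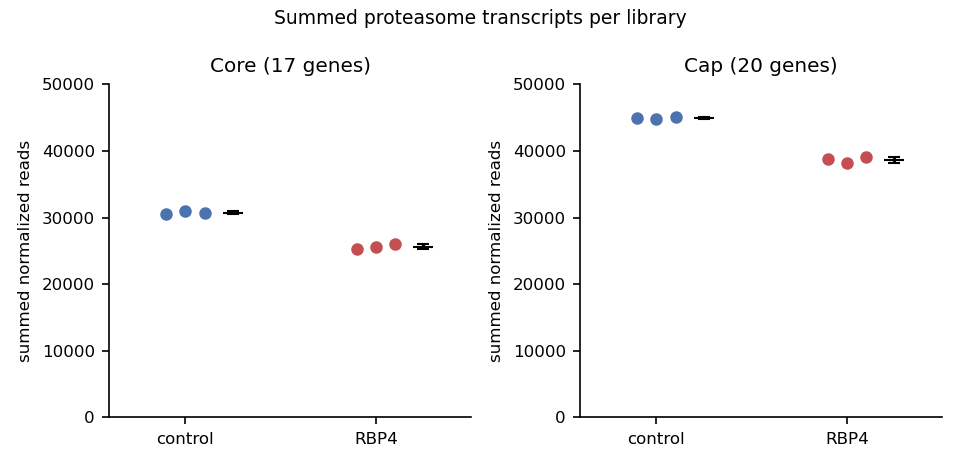
Summed normalized reads (y axis) of the 17 core genes (left) and the 20 cap genes (right) in each library (points), with the group mean and SD (n = 3, black). The 3 RBP4 libraries sit below the 3 control libraries in both panels, at 25319 to 26021 against 30563 to 30990.4 for the core and 38186 to 39148 against 44885 to 45169 for the cap.

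In the alpha ring, 4 of 7 genes fell (PSMA3, PSMA4, PSMA5 and PSMA7), with a median of -0.28 on the log2 scale over all 7. PSMA7, the most abundant of them per kilobase of gene length, had 2799.5, 2777 and 2809.8 normalized reads in the control and 2341, 2362 and 2250.1 in the RBP4 libraries. Its groups were well apart, and it fell 1.21-fold (log2 fold change -0.27, SE 0.035, limma adjusted p = 7.6e-10). PSMA3, PSMA4 and PSMA5, which belong to the same ring, fell by 1.21-fold, 1.23-fold and 1.21-fold. PSMA1 had 709, 642 and 669 against 621, 654 and 653 normalized reads. These groups overlapped, and the difference of -0.066 had a 95% interval of -0.18 to 0.051 (limma adjusted p = 0.361).

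PSMA6 and PSMA2, whose proteins are obligate parts of the ring, stood far below the other alpha genes. PSMA6 had 52.8, 52.3 and 45.0 normalized reads in the control libraries and 33.8, 43.4 and 35.3 in the RBP4 libraries. All 3 RBP4 values were the lower ones, yet the gene did not pass (log2 fold change -0.41, 95% interval -0.83 to 0.013, limma adjusted p = 0.101). PSMA2 had means of 84.1 ± 10.5 and 67.9 ± 10.8 (n = 3 per group; limma adjusted p = 0.116). At these low values the intervals of both genes include the fall of the better measured alpha genes as well as 0.

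The annotation places exons of other genes over these low members. In GENCODE release 29 (GRCh38), 81.0% of the principal transcript of PSMA6 (chromosome 14, 35278633 to 35317493) lies in exons of a second protein-coding gene on the same strand, AL121594.1, which had at most 3.82 normalized reads in any library. For PSMA2 (chromosome 7, 42916857 to 42932223) 52.5% lies in exons of AC010132.3. In all, 5 members share principal exons with a gene on the same strand: PSMA1, PSMA2, PSMA6, PSMB10 and PSMD9. Their control levels ranged from 7.69 to 204 normalized reads per kilobase of gene length with a median of 21.1, and none of the 5 passed the test. A further 6, all in the cap, share principal exons only with a gene on the opposite strand (median 379), and the 26 that share no principal exon had a median of 737. Per kilobase of the principal transcript, the 5 same-strand members ranged from 37.4 (PSMB10) to 447 (PSMA1). The labels describe no strand-marking step, and how reads in shared exons were counted is not stated in the labels. Whether this sharing had a part in the low levels was not tested. Among the 25 tested members whose principal transcript shares no exon, a subset chosen after seeing the data, 23 fell, 1 rose and 1 did not pass. Over all annotated exons some of these do share bases: 5.66% in PSMB9 on the same strand, and 10.8% in PSMD1 and 7.83% in PSMD6 on the opposite strand.

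**Figure D3:**
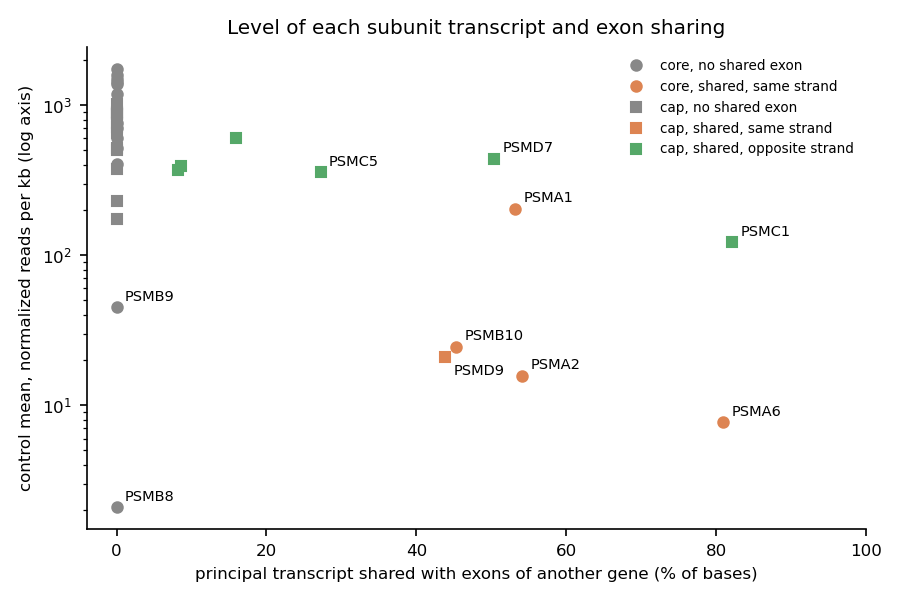
Control mean of each member in normalized reads per kilobase (y axis, log scale) against the percentage of its principal transcript that lies in exons of another gene (x axis), for core (circles) and cap (squares). Members that share principal exons on the same strand (orange) lie between 7.69 and 204, and those that share no principal exon (grey) have a median of 737, with PSMB9 and PSMB8 far below it.

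All 4 non-catalytic beta genes fell, by a median of -0.24 on the log2 scale. PSMB2 had the most reads of any member and the largest fall of the core among genes that passed. It had 5707, 5796 and 5639 normalized reads in the control libraries and 4364, 4374 and 4409 in the RBP4 libraries. The spread within each group was small beside the gap between them, and the fall was 1.304-fold (log2 fold change -0.38, SE 0.029, limma adjusted p = 9.5e-19). PSMB4 showed the smallest change of the 4, from 2901, 3081 and 3019 to 2526, 2650.5 and 2668 (1.15-fold lower, limma adjusted p = 1.6e-06). PSMB3 was the highest of all 37 members per kilobase of gene length, at 1742 normalized reads per kilobase in the control. Per kilobase of the principal transcript it ranked 4 and PSMB1 ranked 1. PSMB3 went from 2081, 1951 and 2129.8 to 1724, 1699.6 and 1724 normalized reads (1.197-fold lower, limma adjusted p = 7.0e-08).

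The 3 constitutive catalytic subunits fell together. PSMB5, which carries the chymotrypsin-like site and is the main target of the drug bortezomib, had 1256, 1302 and 1195 normalized reads in the control and 1023, 1066 and 1093 in the RBP4 libraries. It fell 1.18-fold (log2 fold change -0.24, SE 0.047, limma adjusted p = 1.9e-05). PSMB6, the caspase-like subunit, had 1053, 1138 and 1128 against 906, 956 and 935 and fell 1.19-fold (limma adjusted p = 2.3e-05). PSMB7, the trypsin-like subunit, had 2565, 2512 and 2568 against 2209.7, 2267 and 2256 and fell 1.14-fold (limma adjusted p = 1.1e-05). The groups did not overlap for any of these 3 genes, nor for 74.8% of protein-coding genes averaging 1000 or more normalized reads.

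PSMB9, an immunoproteasome subunit that can take the place of PSMB6, was the single member that rose. Its values were 152, 137 and 127 normalized reads in the control and 178, 215 and 207 in the RBP4 libraries. Each RBP4 library exceeded each control library, and the rise was 1.44-fold (log2 fold change 0.52, SE 0.11, 95% interval 0.29 to 0.75, limma adjusted p = 9.2e-05). It rose under every alternative tried, with log2 fold changes of 0.46 to 0.61 and adjusted p-values up to 0.00355. Per kilobase of gene length, PSMB9 amounted to 6.81, 5.67 and 5.33 for every 100 of PSMB6 in the control libraries and 9.26, 10.6 and 10.4 in the RBP4 libraries, so that it remained the minor form in all 6. Per kilobase of the principal transcript the control means were 177.5 for PSMB9 and 1298 for PSMB6, so the ratio depends on the length used.

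Of the other immunoproteasome genes, one did not pass and one was too low to test. PSMB10, the counterpart of PSMB7, had 44.5, 51.3 and 40.7 normalized reads in the control and 39.6, 46.3 and 47.7 in the RBP4 libraries, which overlap (log2 fold change -0.029, 95% interval -0.44 to 0.39, limma adjusted p = 0.923). That interval overlaps the one of PSMB9 and ends below the PSMB9 estimate, and the difference between these genes was not tested. In the annotation 45.3% of the PSMB10 principal transcript lies in exons of AC040162.1 on the same strand. PSMB8, the counterpart of PSMB5, had 9.31, 2.01 and 7.50 against 7.73, 3.78 and 4.77 normalized reads and was too low to be tested. For every 100 of PSMB5 per kilobase of gene length there were 0.299 ± 0.183 of PSMB8 in the control and 0.304 ± 0.125 in the RBP4 libraries (n = 3 per group). The PSMB8 principal transcript shares no exon with another gene.

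**Figure D4:**
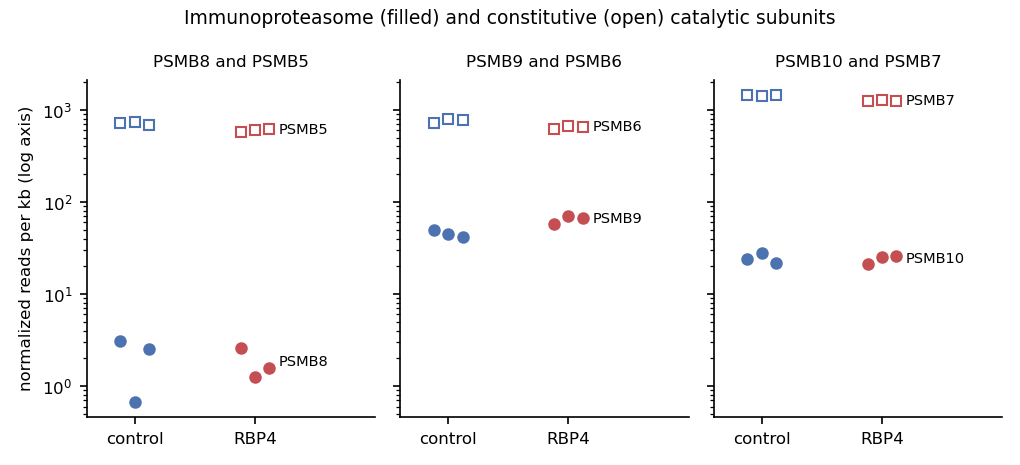
Normalized reads per kilobase (y axis, log scale) of each immunoproteasome subunit (filled circles) and the constitutive subunit it can replace (open squares) in the 3 control (blue) and 3 RBP4 (red) libraries. PSMB9 lies higher and PSMB6 lower in the RBP4 libraries, while PSMB8 and PSMB10 overlap between the groups.

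Among the ATPases of the cap base, which form a ring that unfolds substrates and threads them into the core, 5 of 6 fell, with a median of -0.14 (log2). PSMC6 had 1673, 1748 and 1771 normalized reads in the control and 1254, 1379.5 and 1386 in the RBP4 libraries. The groups were far apart, and the gene fell 1.29-fold (log2 fold change -0.37, SE 0.043, limma adjusted p = 3.5e-11). The other ATPases lay closer to 0. PSMC3, the most abundant per kilobase, went from 2347, 2301 and 2286 to 2051, 2022 and 2074 (1.13-fold lower, limma adjusted p = 4.5e-05). PSMC2 went from 2671, 2661 and 2739 to 2454, 2411 and 2578 (1.08-fold lower, limma adjusted p = 0.0038). With libraries scaled to equal totals PSMC2, PSMC4 and PSMC5 no longer passed (log2 fold changes -0.049, -0.073 and -0.068; adjusted p = 0.247, 0.0981 and 0.172). PSMC1 had means of 751 ± 4.86 and 689 ± 13.8 without overlap and did not pass (limma adjusted p = 0.0562), and 82.1% of its principal transcript lies in exons of NRDE2 on the opposite strand.

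The remaining base subunits went separate ways. PSMD1, a large scaffold of the base, had the largest fall of all members that passed, from 2568, 2573 and 2702 to 1905, 1829.9 and 2020.2 normalized reads. The fall was 1.36-fold (log2 fold change -0.45, SE 0.038, limma adjusted p = 1.7e-16). PSMD2, the other scaffold, which docks ubiquitin receptors and shuttle proteins, fell 1.205-fold. PSMD4, a ubiquitin receptor, had 2605, 2696 and 2659.9 normalized reads in the control and 2817, 2769 and 2633 in the RBP4 libraries. These values overlap, and PSMD4 was the only member averaging 1000 or more normalized reads that did not pass (log2 fold change 0.046, 95% interval -0.024 to 0.11, limma adjusted p = 0.278). The lower end of that interval lies above the upper ends of those of the other 28 members of that abundance. With libraries scaled to equal totals it passed as a rise (log2 fold change 0.11, adjusted p = 0.0047).

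All 8 lid genes fell (median log2 fold change -0.25), and in none did the groups overlap. The groups also lay apart in 74.8% of protein-coding genes averaging 1000 or more normalized reads. PSMD6 showed the largest change, from 1534, 1622 and 1606 to 1269, 1130.3 and 1242 normalized reads (1.31-fold lower, log2 fold change -0.39, SE 0.045, limma adjusted p = 2.7e-11). PSMD8 showed the smallest and was the most abundant lid gene per kilobase of gene length, going from 2852, 2818 and 2670.6 to 2469, 2445 and 2531 (1.12-fold lower, limma adjusted p = 6.5e-05). Per kilobase of the principal transcript PSMD3 was higher, at 1992 against 1790 normalized reads in the control. PSMD14, the deubiquitinase of the lid, fell 1.24-fold and PSMD11, a lid scaffold, 1.18-fold. The assembly chaperones PSMD5, PSMD9 and PSMD10 bind the base while it forms and are not part of the finished particle. PSMD5 had 3122, 3176 and 3205 against 2661, 2488 and 2567 normalized reads and fell 1.23-fold (limma adjusted p = 1.2e-11). PSMD10, also known as gankyrin, fell 1.10-fold (limma adjusted p = 0.0085), a call that was lost without control library 3 (adjusted p = 0.0529), with DESeq2 (0.0566) and with libraries scaled to equal totals (0.19). PSMD9 stood at 185 ± 17.9 and 178 ± 16.5 with overlap (limma adjusted p = 0.717), and shares 43.8% of its principal transcript with genes on the same strand.

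In the authors' deposited table, 28 of the 37 members are listed at an adjusted p under 0.05, where 20.6% of all 28847 genes are. Those genes include many too low for the filter used here, which 15676 passed. Of 3754 protein-coding genes averaging 1000 or more normalized reads, limma called 2711, and it called 28 of the 29 members of that abundance. PSMD10 is listed by the authors at 0.0566. DESeq2 on the recovered reads also called 28 members and 5931 of all genes, as many as the authors list, and gave PSMD10 the same value. It repeats the deposited result and is not a separate check.

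Genes that work with the proteasome were taken from 7 lists chosen from textbook roles. Among 51 of them tested, 25 fell and 10 rose, 16 missed the threshold, and the median was -0.093 (log2), where 26.1% of all genes tested fell and 24.5% rose. Among the 32 partner genes averaging 1000 or more normalized reads 21 fell (65.6%), against 56.6% of protein-coding genes of that abundance. The number that rose depended on the setting: it was 6 without RBP4 library 2, 7 with no filter or with DESeq2, and 14 with libraries scaled to equal totals. Both E1 enzymes and all 4 ubiquitin genes fell: UBA6 by 1.33-fold, with means of 3156 ± 101 and 2372 ± 37.8 normalized reads (limma adjusted p = 1.1e-16), UBA1 by 1.16-fold, and the ubiquitin fusion gene RPS27A by 1.12-fold. Of 10 shuttle and deubiquitinase genes 7 fell and 1 rose. The shuttles UBQLN1 and RAD23B fell 1.199-fold and 1.153-fold, the ligase UBE3C 1.23-fold and the cap-bound deubiquitinase UCHL5 1.18-fold, while ZFAND5 rose by 0.26 on the log2 scale. Of 7 assembly factors 4 fell and 3 did not pass. POMP, which matures the core, went from 1716 ± 63.2 to 1341 ± 19.5 (1.28-fold lower, limma adjusted p = 5.8e-11), and the core chaperones PSMG4 and PSMG2 fell 1.24-fold and 1.21-fold.

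Of the 2 cap subunits with other names, SEM1 fell 1.23-fold and the ubiquitin receptor ADRM1 stood at 812 ± 98.7 and 822 ± 49.7 normalized reads (limma adjusted p = 0.803). Alternative activators divided too: PSME3 and PSME4, which open the core of nuclear proteasomes, fell 1.19-fold and 1.15-fold, and PSME1 and PSME2, the interferon-induced activator, stood at 697 ± 18.6 and 754 ± 13.9 (adjusted p = 0.0837) and at 804 ± 29.5 and 775 ± 27.9 (adjusted p = 0.429 in limma).

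In the list of NFE2L1 and its partners 3 genes rose, 3 fell and 3 did not pass. Among all genes tested 24.5% rose and 26.1% fell. NFE2L1, the transcription factor that drives proteasome genes, stood at 2324.5, 2201.5 and 2176 normalized reads in the control and at 2977, 3056.5 and 3049 in the RBP4 libraries. It rose 1.36-fold (log2 fold change 0.44, SE 0.035, limma adjusted p = 1.5e-17). Its relative NFE2L2 rose 1.29-fold (limma adjusted p = 3.9e-11). Of the 3 listed genes that release active NFE2L1 from the endoplasmic reticulum, 2 fell and 1 did not pass. NGLY1, which strips its sugars, fell from 1717 ± 44.9 to 1209.6 ± 31.4 (1.42-fold lower, limma adjusted p = 1.9e-16), and VCP, the ATPase that extracts it, fell 1.15-fold. DDI2, the protease that cleaves it, had 1826 ± 31.5 and 1925 ± 64.6 normalized reads (limma adjusted p = 0.0974).

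Class I antigen genes, which trim, carry and present peptides, numbered 11 tested of 14 listed: 6 rose, 2 fell, and 3 did not pass, where 24.5% of all genes tested rose and 26.1% fell. HLA-E rose 1.40-fold and the peptide trimmer ERAP1 1.302-fold, while B2M fell 1.14-fold. HLA-B rose from 5.17, 9.06 and 10.7 to 16.4, 33.1 and 15.3 normalized reads (limma adjusted p = 0.0053), few reads for a gene with near-identical relatives. TAP1, the peptide transporter encoded next to PSMB9, had 406 ± 29.1 and 425 ± 9.93 normalized reads, which overlap (limma adjusted p = 0.452), and TAP2 rose 1.10-fold (limma adjusted p = 0.0346).

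**Figure D5:**
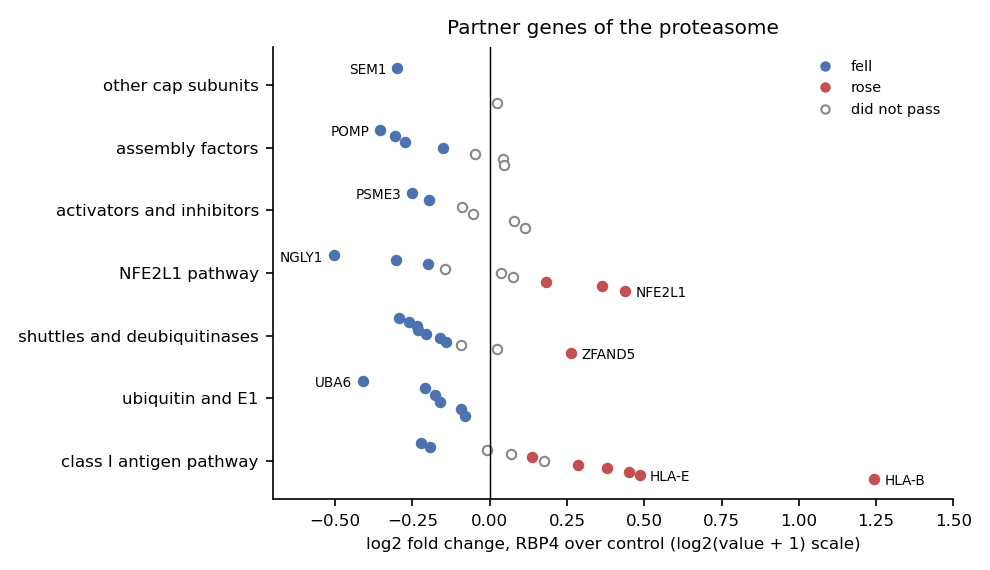
Log2 fold change (x axis, RBP4 over control, log2(value + 1) scale) of 51 tested partner genes in 7 lists (y axis); filled points passed at an adjusted p under 0.05. Ubiquitin and E1 genes all lie below 0, and NFE2L1 (0.44) and NGLY1 (-0.50) lie at the ends of their list.

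Promoter sequences from RefSeq (GRCh38.p14, 250 bases before to 50 bases after a start) matched 32 of the 37 members by symbol, and not PSMA7, PSMB1, PSMB6, PSMB7 or PSMD4. They were searched on both strands for 4 motifs picked after the expression values were known: the antioxidant response element TGACNNNGC, which NFE2L1 and NFE2L2 recognise, the ETS motif CCGGAAG, the CCAAT box, and the interferon-stimulated response element, which is GAAA, any 2 bases and GAAA. The members had 39 windows, with several for 6 of them, and PSMA4, with several, counted though not every window matched. The shares of windows below are per window and those of members per gene, so they are unlike units. The antioxidant motif was found in 10 members (31.3%), against 13.3% of all 35116 promoter windows and 19.4% of tested protein-coding genes. The ETS motif was found in 10 of 19 cap genes and 1 of 13 core genes, against 10.3% of windows and 22.8% of tested genes. CCAAT was found in 17 members, against 34.6% of windows and 43.5% of tested genes. The interferon motif was found in 4 core genes, PSMA4, PSMB4, PSMB8 and PSMB10, and no cap gene, against 3.57% of windows and 3.76% of tested genes. A match describes letters only.

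The 250 bases before the start are shown for 4 members that differ in response: PSMB9, which rose, PSMB10, which did not pass, and the falling cap genes PSMC6 (ATPase) and PSMD12 (lid, 1.16-fold lower). Capitals mark matches to the antioxidant, ETS or interferon motif on either strand. PSMB9 is read from chr6:32853942-32854191 on the plus strand, PSMB10 from chr16:67936851-67937100 on the minus strand, PSMC6 from chr14:52706950-52707199 on the plus strand and PSMD12 from chr17:67366578-67366827 on the minus strand. PSMB9 holds an antioxidant match and no interferon match in its window, and PSMB10 the reverse.
PSMB9: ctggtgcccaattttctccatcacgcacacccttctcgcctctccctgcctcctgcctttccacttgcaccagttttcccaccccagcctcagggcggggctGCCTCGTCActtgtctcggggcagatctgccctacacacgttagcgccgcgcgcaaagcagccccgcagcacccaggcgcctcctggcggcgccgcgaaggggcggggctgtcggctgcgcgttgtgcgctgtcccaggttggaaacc
PSMB10: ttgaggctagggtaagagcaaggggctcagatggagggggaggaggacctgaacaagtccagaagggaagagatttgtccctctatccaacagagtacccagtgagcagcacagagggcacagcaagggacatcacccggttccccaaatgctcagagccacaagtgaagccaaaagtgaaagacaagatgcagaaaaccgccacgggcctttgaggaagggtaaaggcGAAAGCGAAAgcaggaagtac
PSMC6: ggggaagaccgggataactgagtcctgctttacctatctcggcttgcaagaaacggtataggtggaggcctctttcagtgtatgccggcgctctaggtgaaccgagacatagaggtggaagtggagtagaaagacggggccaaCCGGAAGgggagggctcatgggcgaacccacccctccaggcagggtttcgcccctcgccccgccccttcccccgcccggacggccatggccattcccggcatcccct
PSMD12: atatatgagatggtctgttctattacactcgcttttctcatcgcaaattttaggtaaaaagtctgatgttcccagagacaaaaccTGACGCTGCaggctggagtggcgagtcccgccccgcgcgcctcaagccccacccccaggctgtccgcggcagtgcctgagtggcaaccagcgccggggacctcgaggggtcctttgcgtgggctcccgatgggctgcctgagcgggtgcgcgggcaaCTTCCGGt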

How the data were processed

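Poly-T selected RNA was sequenced on an Illumina platform, per the labels' protocols; the aligner and counter are, with their versions, not given in the sources used here, so their effect on the values is unknown. The deposited values are a signal per gene and library: gene read counts that the authors divided by 1 size factor per library. Every value of a library was a whole multiple of 1 step within 0.01 reads (100% of values), which gave back the reads. The deposited table also holds the authors' log2 fold change, p-value and adjusted p-value. Gene starts and ends in the file matched GENCODE release 29 for all 28847 genes.

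Genes that reached 10 in 3 or more of the 6 libraries were tested on log2(value + 1) with limma 3.58.1 (R 4.3.3; intensity trend, robust), 2-sided, with Benjamini-Hochberg adjustment over all 15676 genes and a threshold of 0.05. Fold changes of low genes are understated on this scale. Folds in the text are ratios of group means, and levels per kilobase use the deposited gene length unless the principal transcript is named. DESeq2 1.42.0 and edgeR 4.0.16 were run on the recovered reads as alternatives, with other pseudocounts, filters, scalings and left-out libraries; the script was tested on simulated data. In full, the text names in each role group the highest and lowest log2 fold change and the most abundant gene per kilobase, with all catalytic and immunoproteasome genes, and in each partner list up to 4 genes with the smallest p past the threshold or, where none passed, the 2 most abundant; other genes were named after their values were seen, and a few partner genes that the rule names are not reported here. The members and lists were chosen with earlier results of these data known. Depth allows 3 reads to stand for 0.183 to 0.197 CPM, for counting error only. PSMA8 and PSMB11 were not analysed here.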

Additional observations from a re-analysis of the deposited data

How the results depend on the processing

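The number of members called stayed between 26 and 30 over the pseudocounts, filters, scaling, gene sets, replicate block and count models tried, against 29, with 12 core genes in each and 14 to 18 cap genes. Without the members whose principal transcript shares exons with another gene, a choice made after seeing the data, 24 of 25 were called, 12 of them in the cap. Partner genes called numbered 29 to 36, against 35. Leaving out each library in turn gave 28 to 29 members. edgeR called 7832 and DESeq2 5931 of all genes, against 7934, and the DESeq2 calls repeat the deposited ones. The replicate numbers did not pair the libraries (correlations 0.00365, -0.0079 and -0.0169), and with the replicate block 29 members were called. Scaling to equal totals brought the log2 ratio of the core sum from -0.26 to -0.19 and of the cap sum from -0.22 to -0.15, and the median over members per kilobase gave -0.28 for both, so that the order of core and cap was lost; without 1 library the ratios were -0.2716 to -0.2519 and -0.2271 to -0.2092. At equal totals the log2 fold changes of PSMA1 (0.0020), PSMB10 (0.038) and PSMD9 (0.015) turned positive without passing. Leaving out 1 library gave -0.10 to 0.060 for PSMB10, positive without control 2 or RBP4 1 (0.051), and -0.12 to 0.025 for PSMD9, positive without RBP4 2 or control 3 (0.017). PSMC1 passed with the filter at 50 (adjusted p = 0.0495). Apart from the scaling, which changes every ratio by construction, the cause was not tested. PSMB8 was too low to be tested, and the low genes PSMA2, PSMA6 and PSMB10 had wide intervals, for which no cause was tested.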

Other observations

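Across the 36 tested members, the log2 fold change and the log2 control mean had Pearson's r = -0.33 and Spearman's rho = -0.25; this is a description across genes, which are not independent replicates and share the 6 libraries. The antisense RNA PSMA3-AS1 fell, with means of 421 normalized reads in the control and 357 in the RBP4 libraries. In the annotation used here, 0 exonic bases of PSMA3 lie in exons of another gene. Where members do share exons with a gene on the opposite strand, reads cannot be told apart without strand information. The pseudogene PSMC1P1 had means of 31.0 and 36.9 normalized reads and did not pass.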
